A study of Mus musculus with 18 samples.

Results

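The 9 genes of iron storage, antioxidant defence and polyamine breakdown described here are 9 of the 46983 genes measured, in bulk RNA of 3 immune cell sorts from mouse tumours. They are the ferritin genes Fth1 and Ftl1, the haem oxygenase gene Hmox1, the glutathione peroxidase genes Gpx1 and Gpx4, the peroxiredoxin gene Prdx1, the thioredoxin gene Txn1, the superoxide dismutase gene Sod1 and the polyamine acetylase gene Sat1. They were listed by name with the criterion that they follow the macrophage gene Lyz2 across libraries and change with D18, and were thus chosen by measured values, namely their treatment change and their relation to Lyz2 in these same libraries. For that reason their treatment differences and that relation are given as descriptions, without a test. All 9 were present in the table of every sort and passed the filter on low values in each.

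Female C57BL/6 mice, 6 weeks old, carried MC38 tumours, grown under the skin from a mouse colon carcinoma line, and treatment began at an average tumour size of about 100 mm3. In the first group, mice received anti-PD-1 antibody (200 μg per mouse, 2 times per week) plus D18 (25 μg per mouse, 1 time per week). In the other group, mice received the same anti-PD-1 dosing without D18, so every library comes from an antibody-treated tumour and none from an untreated one. Treatment lasted 2 weeks, and the labels do not say what D18 is. The sorts were of dendritic cells, T helper cells (CD4+) and CD8+ T cells from the tumours, with 3 libraries per treatment and sort, 18 in all. Mice were pooled before they were divided into treatments. No label ties a replicate to its own mice, so the spread between replicates may be partly technical.

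Ferritin is a hollow shell of heavy and light chains that stores iron: the heavy chain, from Fth1, oxidises iron so that it can be stored, and the light chain, from Ftl1, helps the iron core to form. Haem oxygenase frees iron from haem, a task that tissue macrophages carry out when they clear old red cells. Glutathione peroxidases, peroxiredoxins and thioredoxin remove peroxides or keep protein thiols reduced, superoxide dismutase turns superoxide into hydrogen peroxide, and Sat1 acetylates spermidine and spermine for export or breakdown.

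Both ferritin messengers carry an iron-responsive element near the start of the transcript, a hairpin that iron regulatory proteins bind when iron is scarce, which holds back translation. Reads of Fth1 and Ftl1 therefore measure the messenger and not the ferritin protein. The elements are shown because they are the feature that the 2 most abundant of the 9 genes share. They were found in GENCODE M21 transcripts by their loop, in capitals, closed by 5 base pairs of stem, and run 5′ to 3′ on the transcript. The Fth1 element lies at chr19:9982732-9982760 (GRCm38, plus strand) and the Ftl1 element at chr7:45459779-45459807 (GRCm38, minus strand). They hold the same base at 26 of 29 positions and differ by T1G, C4T and C18T, written as the Fth1 base, the position from the 5′ end and the Ftl1 base.
Fth1 element: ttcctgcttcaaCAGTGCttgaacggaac
Ftl1 element: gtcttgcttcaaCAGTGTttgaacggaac

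Promoter windows of 300 bases, 250 before and 50 after the start site, were available from RefSeq (GRCm38.p6) for 8 of the 9 genes. Hmox1 had no window, and sequence outside the windows was not searched. The core of the antioxidant response element, TGACNNNGC on either strand, to which the transcription factor NRF2 binds, was present in a window of 2 of these 8 genes, Prdx1 and Sod1, and in a window of 14.0% of all 27025 genes that have one. By window, it was in 2 of the 12 windows of these genes and in 12.4% of 32851 windows in all. In Prdx1 the match began 133 bases before the start site and in Sod1 56 bases before it, both on the opposite strand. A match of letters is a description and not a site shown to be used. The windows of Sat1 and Gpx1 are printed because these were the genes whose treatment groups did not overlap in any sort, and that of Prdx1 as the example with the element, whose match is in capitals. They lie at chrX:155216400-155216699 (minus strand), chr9:108338830-108339129 (plus strand) and chr4:116685349-116685648 (plus strand), in that order. Neither the Sat1 nor the Gpx1 window held the element's letters.
Sat1 promoter: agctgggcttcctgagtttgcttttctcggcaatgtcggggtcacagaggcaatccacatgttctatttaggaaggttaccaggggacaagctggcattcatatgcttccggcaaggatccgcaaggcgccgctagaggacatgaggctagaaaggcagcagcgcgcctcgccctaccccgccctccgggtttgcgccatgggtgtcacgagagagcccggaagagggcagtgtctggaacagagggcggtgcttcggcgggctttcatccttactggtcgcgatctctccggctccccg
Gpx1 promoter: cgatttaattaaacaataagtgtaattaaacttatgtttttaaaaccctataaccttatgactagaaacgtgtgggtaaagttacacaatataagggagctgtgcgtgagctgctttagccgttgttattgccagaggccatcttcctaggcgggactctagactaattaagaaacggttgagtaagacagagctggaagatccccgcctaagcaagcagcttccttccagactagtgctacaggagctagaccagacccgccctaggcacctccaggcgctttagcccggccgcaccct
Prdx1 promoter: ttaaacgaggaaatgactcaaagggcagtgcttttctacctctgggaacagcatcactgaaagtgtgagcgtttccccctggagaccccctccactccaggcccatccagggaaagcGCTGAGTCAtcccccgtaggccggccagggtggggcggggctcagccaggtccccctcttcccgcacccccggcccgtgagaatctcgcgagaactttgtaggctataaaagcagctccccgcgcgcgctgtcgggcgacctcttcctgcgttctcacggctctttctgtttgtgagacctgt

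The libraries were shallow, at 11170 to 266392 reads, and not all of them matched their sort. Cd3e, which encodes a signalling chain of the T cell receptor, had 23, 10 and 41 reads in the CD4 libraries of D18-treated mice, against 0, 1 and 45 reads in those of anti-PD-1 mice, where replicates 1 and 2 had 12 and 6 of the 18 T cell markers at 0. The library labelled CD4, D18 replicate 3 had 2 reads of Cd4, against 83 of Cd8a and 90 of Cd8b1, the chains of the CD8 receptor, so its T cell reads go against its label. CD4 anti-PD-1 replicate 3 was mixed as well, with 20 reads of Cd4 beside 15 of Cd8a and 23 of Cd8b1. In the dendritic cell sort, both libraries numbered 3 held T cell RNA (69 Cd3e reads with D18 and 34 with anti-PD-1), whereas the other 4 had no Cd3e read. The summed CPM (reads scaled to a common library total) of 20 monocyte and macrophage markers ranged from 1558 to 24015 in CD8 libraries with D18, against 23056 to 37807 with anti-PD-1. The same sum was 7747 to 27282 in CD4 libraries with D18, against 19498 to 44123 with anti-PD-1, and 13429 to 30088 in dendritic cell libraries with D18, against 19307 to 47176 with anti-PD-1. Of these 20 markers, the CD8 library of replicate 1 with D18 had 10 at 0, among them Csf1r, Adgre1 and Cd14. The summed CPM of 18 dendritic cell markers was 5103 to 12746.5 in dendritic cell libraries with D18, against 8946 to 15400 with anti-PD-1. Of these 18 markers, 4 to 9 were at 0 in that sort with D18 and 5 to 10 with anti-PD-1. Flt3 was at 0 in each anti-PD-1 library of that sort. Dendritic cell values here thus describe labelled libraries, not dendritic cells alone. Mitochondrially encoded genes took 2.39 to 71.9% of the reads, and anti-PD-1 replicates 1 and 2 of every sort had no read of mt-Co2, mt-Co3 or mt-Atp6, unlike the other 12 libraries. No label names a batch, and with 3 libraries a group such a split and the treatment can be separated only through anti-PD-1 replicate 3. In bulk RNA, fewer cells of a type and less RNA per cell cannot be told apart.

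**Figure D1:**
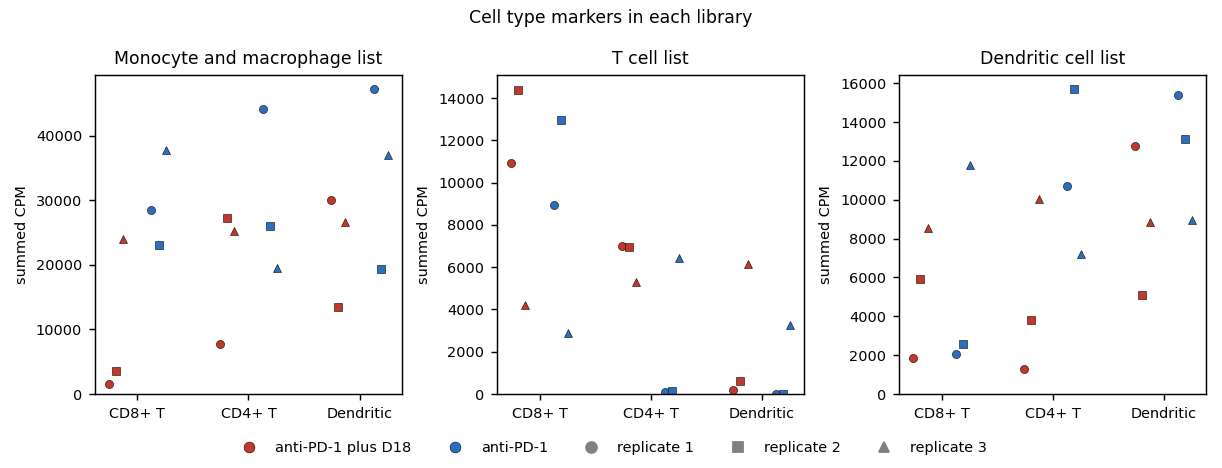
Summed CPM (axis from 0) of the monocyte and macrophage, T cell and dendritic cell marker lists in each library, with anti-PD-1 plus D18 in red and anti-PD-1 in blue, by sort and replicate. Macrophage markers were abundant in all 3 sorts and low in the CD8 libraries of D18 replicates 1 and 2, while CD4 anti-PD-1 replicates 1 and 2 had few reads of T cell markers.

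Together the 9 genes took 0.603 to 3.51% of the reads of a library, and ferritin was most of it, with 64.8 to 87.8% of their CPM. On the per-length scale, CPM per kilobase of exon, the median over the 18 libraries was 6017 for Fth1, 2913 for Ftl1, 626 for Gpx1, 582 for Sod1, 379 for Sat1, 326 for Txn1, 293 for Prdx1, 148 for Gpx4 and 118 for Hmox1. Fth1 exceeded Ftl1 per length in 17 of 18 libraries, with a ratio of 0.984 to 3.24, and Ftl1 exceeded Gpx1 in 18 of 18. The next neighbours were not ordered: Gpx1 lay above Sod1 in 11 of 18 libraries, Sod1 above Sat1 in 9, Sat1 above Txn1 in 10, Txn1 above Prdx1 in 9 and Gpx4 above Hmox1 in 10. Prdx1 lay above Gpx4 in 13 of 18.

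Between sorts, Fth1, Ftl1, Hmox1, Gpx1, Prdx1 and Sat1 had their highest median CPM in dendritic cell libraries, and Gpx4, Txn1 and Sod1 had theirs in CD8 libraries. The Fth1 median was 12596 CPM in the dendritic cell sort, 8643 CPM in the CD4 sort and 7095 CPM in the CD8 sort. For Sat1 the medians were 741 CPM in the dendritic cell sort, 642 CPM in the CD4 sort and 355 CPM in the CD8 sort, the widest gap of the 9 genes at 2.09-fold. The ranges of all 3 pairs of sorts overlapped for each gene, and as the tables were normalised separately no test was made across sorts.

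For the treatment, values are normalised reads, which are reads divided by the size factor of a library, and a change is the difference of group means of log2(normalised reads + 1), anti-PD-1 plus D18 minus anti-PD-1, ± its standard error. Sat1 and Gpx1 were the genes lower in every D18 library than in every anti-PD-1 library of each sort. Fth1 and Ftl1 were lower on average in all 3 sorts and Hmox1 in both T cell sorts, with overlapping groups, and Txn1 and Sod1 were higher on average in all 3, also with overlap. The median change of the 9 genes was -0.55 in the CD8 sort, -1.01 in the CD4 sort and -0.56 in the dendritic cell sort, beside -0.03, 0.03 and -0.65 for all genes tested in those sorts. With limma at an adjusted p under 0.05, 0 of 1569 genes were called in the CD8 sort, 0 of 966 in the CD4 sort and 0 of 886 in the dendritic cell sort (0% of genes in each). At an unadjusted p under 0.05 there were 130 genes in the CD8 sort (8.29%), 100 in the CD4 sort (10.4%) and 61 in the dendritic cell sort (6.88%), and limma-voom called 0 genes in each sort as well.

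**Figure D2:**
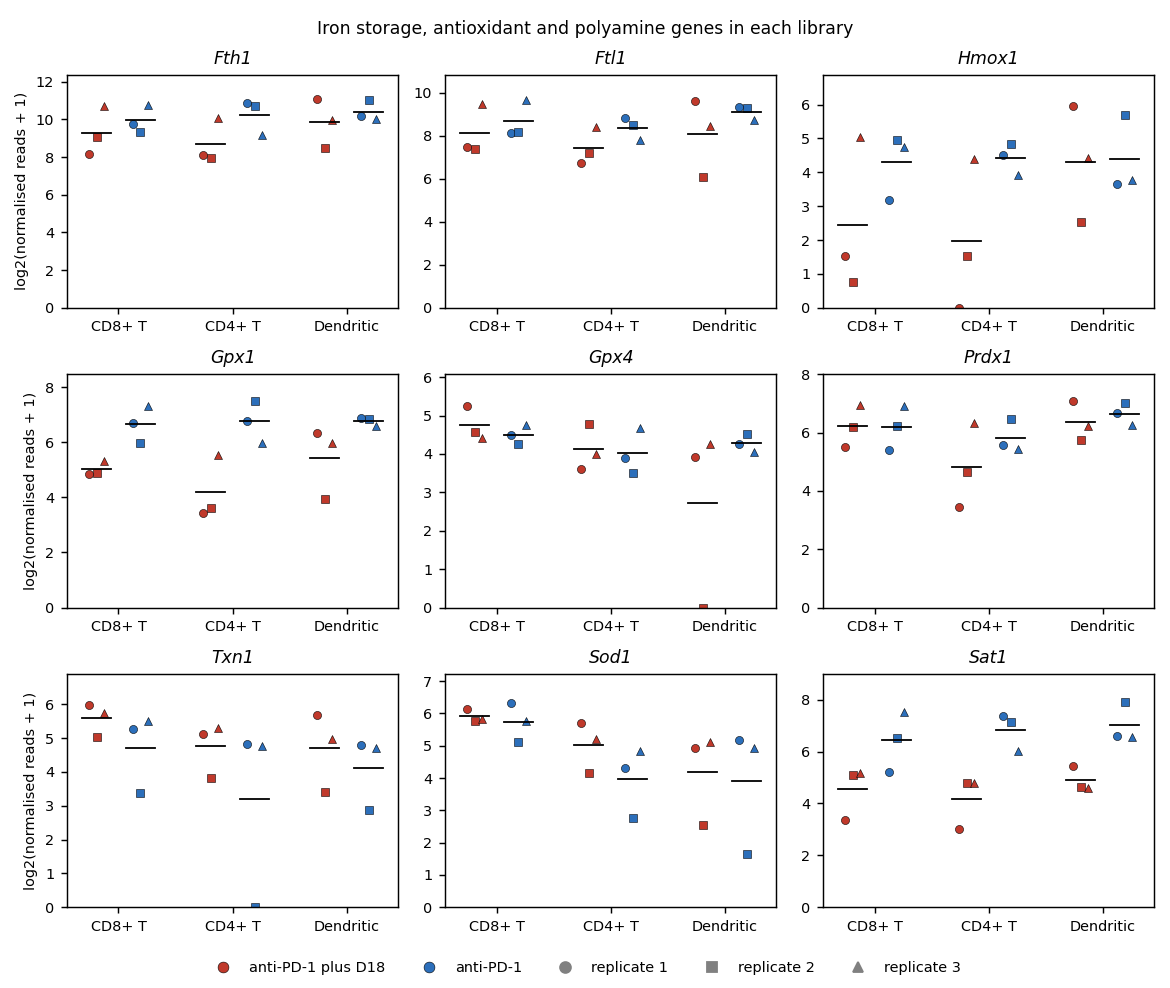
Normalised reads of the 9 genes in each library on a log2(value + 1) axis, by sort, with anti-PD-1 plus D18 in red and anti-PD-1 in blue; the black line is the mean of the 3 log2 values. Sat1 and Gpx1 are the genes whose red and blue points separate in every sort.

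Sat1 encodes spermidine/spermine acetyltransferase, the entry step of polyamine breakdown. In CD8 libraries it had 9.35, 33.2 and 35.4 normalised reads with D18, against 36.4, 91.6 and 184 with anti-PD-1, a change of -1.88 ± 0.72. In CD4 libraries it had 7.06, 26.3 and 26.5 with D18, against 165, 140 and 64.3 with anti-PD-1, a change of -2.66 ± 0.65. In dendritic cell libraries it had 42.9, 24.1 and 22.9 with D18, against 96.4, 243 and 93.2 with anti-PD-1, a change of -2.14 ± 0.70. The groups did not overlap in any sort, though in CD8 cells D18 replicate 3 and anti-PD-1 replicate 1 were nearly level. On this scale the means were 3.68-fold lower with D18 in the CD8 sort, 6.32-fold lower in the CD4 sort and 4.40-fold lower in the dendritic cell sort. Scaled by total reads in place of size factors, the CD8 groups of Sat1 overlapped, with a change of -1.79.

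Gpx1 encodes the abundant cytosolic glutathione peroxidase, a selenium enzyme. In CD8 libraries it had 28.0, 28.7 and 38.7 normalised reads with D18, against 104, 61.1 and 157 with anti-PD-1, a change of -1.63 ± 0.47. In CD4 libraries it had 9.88, 11.3 and 45.0 with D18, against 109, 179 and 62.4 with anti-PD-1, a change of -2.56 ± 0.68. In dendritic cell libraries it had 79.8, 14.4 and 61.7 with D18, against 118, 113 and 95.1 with anti-PD-1, a change of -1.35 ± 0.79. Again no D18 library reached an anti-PD-1 library of its sort, with the gap narrowest in dendritic cells. Scaled by total reads, the dendritic cell groups of Gpx1 overlapped, with a change of -0.90.

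Groups that separate downward made up 7.65% of genes tested in the CD8 sort, 9.21% in the CD4 sort and 19.9% in the dendritic cell sort, while groups that separate upward made up 6.88%, 5.28% and 4.18% in these sorts. Of 727 genes tested in all 3 sorts, 11 (1.51%) separated downward in each, and Sat1 and Gpx1 are 2 of them. Because the genes were listed for changing with D18, nothing is read from these shares. Same-numbered CD8 samples deviated together in the data, though no label pairs them. With the replicate number as a block limma called 20 of 1569 CD8 genes (1.27%), 11 of them lower (0.701%). No call on the 9 genes is read as a test, since their change with D18 chose them. The blocked CD8 change was -1.88 ± 0.32 for Sat1, -1.63 ± 0.30 for Gpx1, -0.64 ± 0.32 for Fth1, -0.55 ± 0.25 for Ftl1 and 0.86 ± 0.36 for Txn1. These standard errors assume that the numbers pair the samples. For each of the 3 CD8 replicate numbers the D18 library was lower for Sat1, Gpx1, Fth1 and Ftl1 and higher for Txn1. With the block, 0 genes were called in the CD4 sort and 0 in the dendritic cell sort.

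Dendritic cell changes rest in part on D18 replicate 2, the library with 11170 reads. Without it, the median change of all genes was 0.03 and that of the 9 genes 0.01. Sat1 then stood at -2.01, close to its value with all libraries, whereas Gpx1 stood at -0.62 and Gpx4 at -0.19. In the CD4 sort, the values without anti-PD-1 replicates 1 and 2, those with few T cell reads, were -1.84 for Sat1 and -1.79 for Gpx1. That comparison has a single anti-PD-1 library, replicate 3, whose own spread cannot be known. It held Cd8a and Cd8b1 reads beside those of Cd4, so it is not a pure CD4 library either. Without the library labelled D18 replicate 3, the CD4 changes were -2.96 for Sat1, -3.22 for Gpx1, -2.20 for Fth1 and -1.42 for Ftl1. Without both libraries numbered 3, the CD4 changes were -3.37 for Sat1 and -3.61 for Gpx1, and 35 of 976 genes (3.59%) were called. That fit keeps only the anti-PD-1 libraries with few T cell reads. Among its calls, the T cell genes Lck, Cd2 and Trac were higher, and Cd74, H2-Aa and Csf1r were lower. Cell content and treatment cannot be told apart in it. With no filter on low values 29 of 14441 CD4 genes (0.201%) were called. In the dendritic cell sort 1 of 848 genes (0.118%) was called without both libraries numbered 3, Gm29216.

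**Figure D3:**
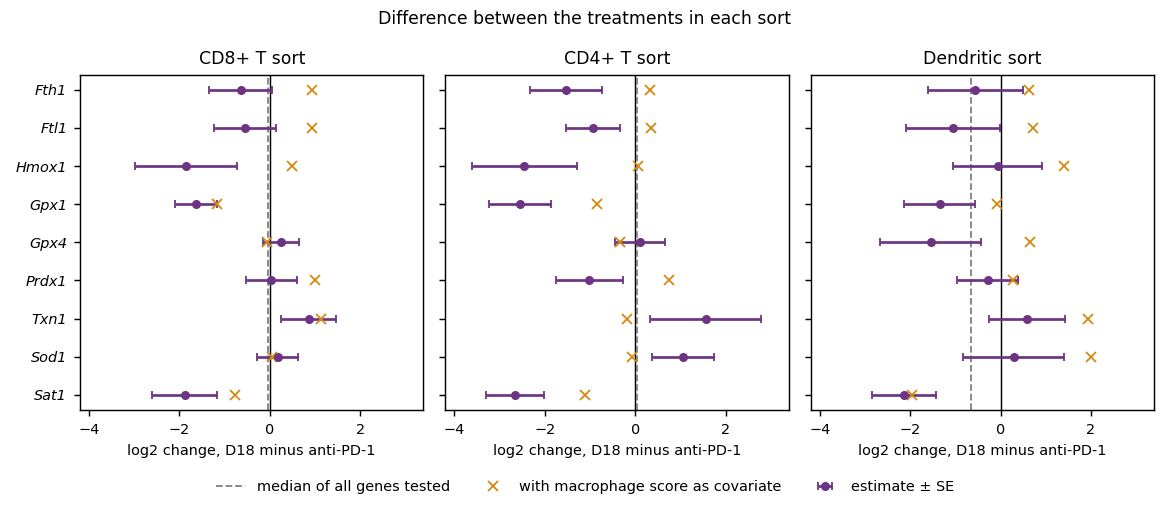
Change of each gene (log2, anti-PD-1 plus D18 minus anti-PD-1) with its standard error, by sort. The dashed line is the median of all genes tested in the fit without a covariate. The crosses are estimates with the macrophage marker score as a covariate, a fit in which that median differs. Sat1 and Gpx1 lie left of 0 in every sort with and without the covariate, while Fth1, Ftl1 and Hmox1 cross to the right with it.

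Fth1, the ferritin heavy chain, had 284, 529 and 1651 normalised reads in CD8 libraries with D18, against 852, 643 and 1732 with anti-PD-1, a change of -0.64 ± 0.69. In CD4 libraries it had 280, 244 and 1060 with D18, against 1838, 1649 and 571 with anti-PD-1, a change of -1.52 ± 0.79. In dendritic cell libraries it had 2188, 351 and 1003 with D18, against 1153, 2081 and 1036 with anti-PD-1, a change of -0.56 ± 1.05. This dendritic cell change lay near the median of all genes tested there, -0.65, and was -1.19 to 0.13 leaving out 1 library. The groups overlapped in each sort, and in both T cell sorts the D18 library numbered 3 stood well above others of its group. Set against the library of the same number, the CD8 value was lower with D18 for each of the 3 replicate numbers.

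Ftl1, the light chain, had 179, 168 and 704 normalised reads in CD8 libraries with D18, against 279, 290 and 821 with anti-PD-1, a change of -0.55 ± 0.68. Its CD4 values were 105, 146 and 340 with D18, against 451, 367 and 223 with anti-PD-1, a change of -0.94 ± 0.61. Its dendritic cell values were 794, 67.4 and 351 with D18, against 649, 621 and 427 with anti-PD-1, a change of -1.06 ± 1.03. As with the heavy chain, the groups overlapped and replicate 3 with D18 was the highest of its group in both T cell sorts.

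Hmox1, the inducible haem oxygenase, was the lowest of the 9 per length and had no read in 1 library. It had 1.87, 0.684 and 32.0 normalised reads in CD8 libraries with D18, against 8.09, 30.0 and 25.9 with anti-PD-1, a change of -1.86 ± 1.13. It had 0, 1.88 and 20.2 in CD4 libraries with D18, against 21.7, 27.7 and 14.3 with anti-PD-1, a change of -2.45 ± 1.16. It had 61.3, 4.81 and 20.5 in dendritic cell libraries with D18, against 11.7, 50.7 and 12.8 with anti-PD-1, a change of -0.07 ± 0.99, although the mean of the normalised reads there was higher with D18 (28.9 against 25.0). The CD8 and CD4 libraries of D18 replicates 1 and 2 held at most 2 reads of the gene each; the library at 0 reads could have held up to 50.4 CPM (3 reads), which covers counting error only.

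Gpx4, the peroxidase that reduces lipid peroxides in membranes and restrains ferroptosis, was not lower on average in the T cell sorts, unlike Gpx1. It had 37.4, 22.9 and 20.2 normalised reads in CD8 libraries with D18, against 21.6, 18.3 and 25.9 with anti-PD-1, a change of 0.24 ± 0.39. The CD4 change was 0.10 ± 0.55 and the dendritic cell change -1.55 ± 1.12, this last one resting on D18 replicate 2, where it had 0 of 11170 reads, which allows up to 269 CPM and so covers its level in most libraries. Gpx1 took 42.9, 55.6 and 65.7% of the summed Gpx1 and Gpx4 reads in CD8 libraries with D18, against 82.8, 76.9 and 85.8% with anti-PD-1. In CD4 libraries it took 46.7, 30.0 and 75.0% with D18, against 88.6, 94.5 and 71.6% with anti-PD-1. The share separated the CD8 groups and not the CD4 groups, and in dendritic cells it was 85.0, 100 and 77.3% with D18, against 86.7, 83.6 and 85.9% with anti-PD-1.

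Prdx1, a peroxiredoxin that reduces hydrogen peroxide in the cytosol, had 44.9, 72.2 and 123 normalised reads in CD8 libraries with D18, against 41.8, 73.8 and 120 with anti-PD-1, a change of 0.03 ± 0.56. The 2 groups were almost the same replicate by replicate. Its change was -1.01 ± 0.74 in the CD4 sort and -0.29 ± 0.68 in the dendritic cell sort, with overlapping groups.

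Txn1, thioredoxin, which passes electrons to peroxiredoxins, had 61.7, 31.8 and 52.2 normalised reads in CD8 libraries with D18, against 37.7, 9.44 and 44.2 with anti-PD-1, a change of 0.86 ± 0.61. Its change was 1.56 ± 1.23 in the CD4 sort and 0.57 ± 0.84 in the dendritic cell sort. Anti-PD-1 replicate 2 stood apart: it had 0 reads in the CD4 sort, which allows up to 20.8 CPM, beside 257 and 337 CPM in the other anti-PD-1 libraries. Without that library the CD4 change was close to 0, at -0.04.

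Sod1, the copper and zinc superoxide dismutase of the cytosol, had 69.2, 53.7 and 55.6 normalised reads in CD8 libraries with D18, against 79.5, 33.9 and 52.9 with anti-PD-1, a change of 0.17 ± 0.45. It had 50.8, 16.9 and 36.3 in CD4 libraries with D18, against 18.9, 5.78 and 27.3 with anti-PD-1, a change of 1.06 ± 0.69. Its change was 0.29 ± 1.11 in dendritic cells, where anti-PD-1 replicate 2 had 2 reads. That replicate also held the fewest Sod1 and Txn1 reads of the CD4 sort and was the library with the largest mitochondrial share in both sorts, at 67.7% in the CD4 sort and 71.9% in the dendritic cell sort. The part of this share in the values was not tested.

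Across the 18 libraries the listed relation to Lyz2, the lysozyme gene of macrophages and neutrophils, held for some of the genes. On log2(CPM + 10), Pearson's r with Lyz2 was 0.78 for Hmox1, 0.74 for Fth1, 0.65 for Ftl1, 0.54 for Prdx1, 0.48 for Sat1 and 0.36 for Gpx1. It was -0.11 for Gpx4, -0.16 for Txn1 and -0.28 for Sod1. The libraries share sorts, depth and treatments, so these values are a description of the points and carry no p. Spearman's rho was 0.87 for Hmox1, 0.66 for Fth1 and 0.75 for Ftl1, but 0.15 for Sat1 and 0.19 for Gpx1. Without the 2 libraries farthest from the median of Lyz2, both numbered 1 in the CD8 sort, r was 0.85 for Hmox1, 0.69 for Fth1 and 0.18 for Sat1. The r of Sat1 with Lyz2 therefore rested on those libraries. Against the summed CPM of the macrophage markers without Lyz2, over all 18 libraries, the order differed. There r was 0.73 for Sat1, 0.72 for Fth1, 0.67 for Gpx1, 0.67 for Hmox1, 0.64 for Ftl1 and 0.30 for Prdx1. It was -0.04 for Gpx4, -0.17 for Txn1 and -0.18 for Sod1. Sat1 and Gpx1 thus followed that list more closely than they followed Lyz2.

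**Figure D4:**
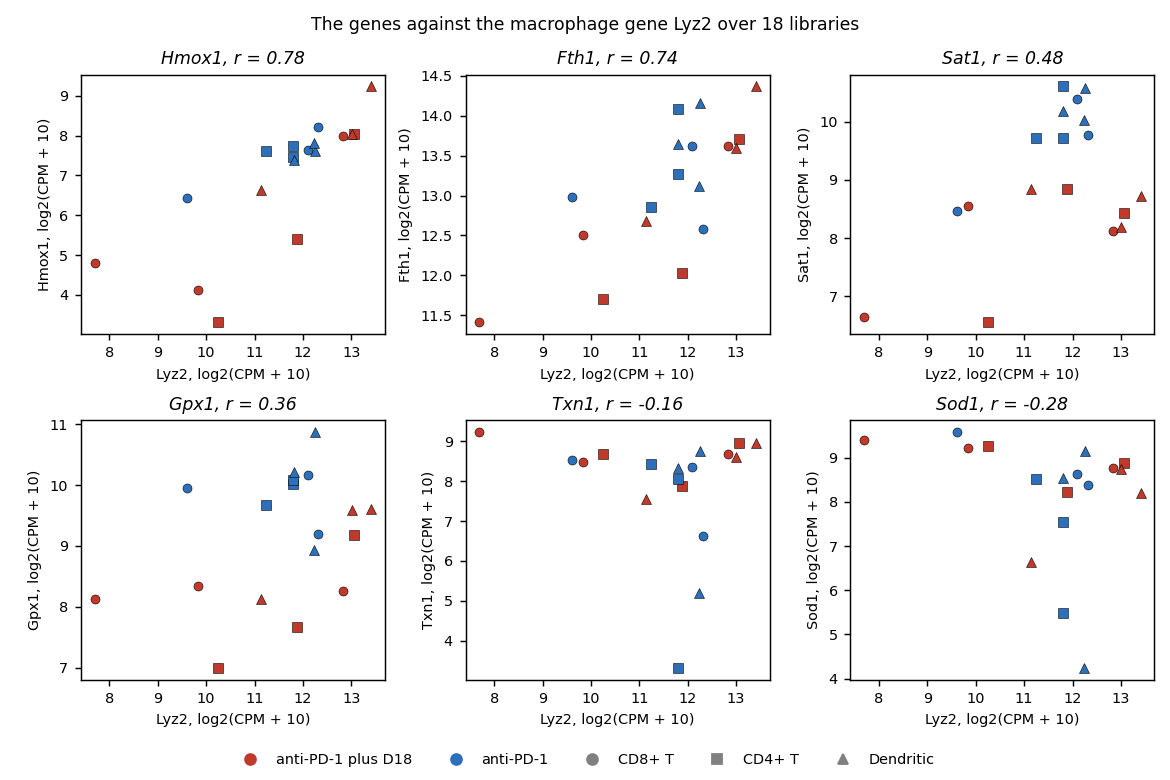
Level of 6 of the genes against Lyz2, both as log2(CPM + 10), over the 18 libraries, with anti-PD-1 plus D18 in red, anti-PD-1 in blue and a shape for each sort. Hmox1 and Fth1 climb with Lyz2, the D18 points of Sat1 and Gpx1 lie mostly below those of anti-PD-1, and Txn1 and Sod1 do not climb.

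Among themselves the genes formed a similar division. The 15 pairs within Fth1, Ftl1, Hmox1, Gpx1, Prdx1 and Sat1 had r of 0.45 to 0.85, highest for Fth1 with Ftl1. The 3 pairs within Gpx4, Txn1 and Sod1 had r of 0.40 to 0.84, highest for Txn1 with Sod1. The 18 pairs between the sets had r of -0.41 to 0.34. The division was drawn after these values were seen. The 8 genes most alike to the mean of the 9, among 5697 genes, were Mrps18c (r = 0.90), Lgals3 (0.89), Mt1, Rasa4, Hpgds, Dstn, Isg15 and Snrpd3 (0.85), and Lyz2 itself ranked 688 with r = 0.54.

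Within a sort, Sat1 departed from Lyz2 most clearly in dendritic cells, where r over 6 libraries was -0.36. Lyz2 had 1122, 120 and 664 normalised reads there with D18, against 307, 1127 and 289 with anti-PD-1. Per 100 Lyz2 reads there were 3.82, 20 and 3.45 Sat1 reads with D18, against 31.4, 21.5 and 32.2 with anti-PD-1. In CD4 libraries there were 6.94, 11.97 and 3.92 with D18, against 43.9, 23.7 and 34.6 with anti-PD-1. In both sorts every D18 library lay below every anti-PD-1 library, narrowly in dendritic cells, where the ratio of 20 rests on 5 Sat1 and 25 Lyz2 reads. In CD8 libraries the ratios overlapped, at 45.5, 40.2 and 3.70 with D18, against 45.0, 17.2 and 30.7 with anti-PD-1, the first resting on 5 Sat1 and 11 Lyz2 reads. Lyz2 itself changed by -0.05 in the dendritic cell sort, -0.48 in the CD4 sort and -1.31 in the CD8 sort. The macrophage markers tested, Lyz2 among them, had median changes of -1.15, -1.35 and -2.39 in these sorts. A ratio to Lyz2 thus does not set Sat1 against the macrophage markers as a whole. The part of Lyz2 in the separation was not tested.

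**Figure D5:**
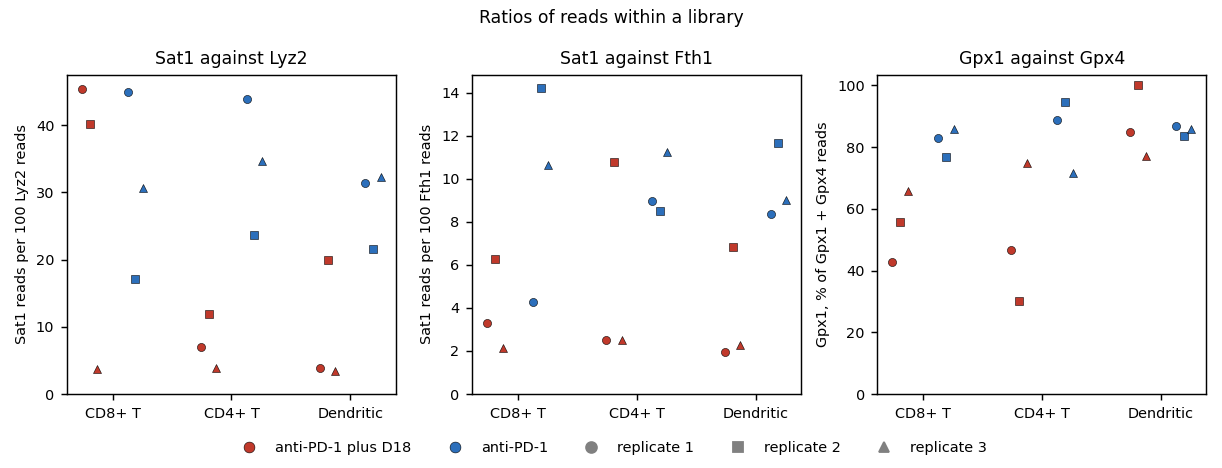
Sat1 reads per 100 Lyz2 reads, Sat1 reads per 100 Fth1 reads and Gpx1 as a percentage of Gpx1 plus Gpx4 reads in each library, on axes from 0, with anti-PD-1 plus D18 in red and anti-PD-1 in blue. Sat1 per Lyz2 separates the groups in the CD4 and dendritic cell sorts and overlaps in the CD8 sort.

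The macrophage markers moved with these values, and a fit with their mean log2 level (Lyz2 left out) as a covariate gave different numbers. Fth1 then stood at 0.93 ± 0.40 in the CD8 sort, 0.32 ± 0.87 in the CD4 sort and 0.63 ± 1.02 in the dendritic cell sort. Ftl1 and Hmox1 likewise were above 0 in each. The median of all genes tested moved too, to 0.03, -0.14 and 0.57 in the CD8, CD4 and dendritic cell sorts. In dendritic cells Fth1 and Ftl1 (0.71) thus lay near the median of all genes. Sat1 stood at -0.76 ± 0.83, -1.12 ± 0.81 and -1.96 ± 0.75 in the CD8, CD4 and dendritic cell sorts, and Gpx1 at -1.17 ± 0.62, -0.84 ± 0.82 and -0.09 ± 0.66. A term for the libraries without mt-Co2, mt-Co3 and mt-Atp6 reads left Sat1 at -2.98 ± 0.92 in the CD8 sort, -1.84 ± 0.88 in the CD4 sort and -1.66 ± 1.17 in the dendritic cell sort.

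Of 134 other genes of the same pathways, 34 were tested in the CD8 sort, 29 in the CD4 sort and 32 in the dendritic cell sort, and 0 passed an adjusted p under 0.05 in each. The smallest limma adjusted p was 0.534 in the CD8 sort, 0.453 in the CD4 sort and 0.551 in the dendritic cell sort. Their median changes were -0.21, -0.12 and -0.70 in these sorts. At an unadjusted p under 0.05 there were 3 genes in the CD8 sort, 1 higher and 2 lower, 3 lower in the CD4 sort and 2 lower in the dendritic cell sort, named here with their values.

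In the polyamine list, Odc1, the ornithine decarboxylase that begins polyamine synthesis, lay opposite to Sat1 in the CD8 sort. It had 14, 76 and 15 reads with D18, against 2, 25 and 8 reads with anti-PD-1, a change of 1.78 ± 0.56 with groups that did not overlap (limma adjusted p = 0.534). The CD4 change of Odc1 was 1.59 ± 1.22 (adjusted p = 0.637), and it was not tested in dendritic cells. Oaz1, the antizyme that marks ornithine decarboxylase for breakdown, stood at 0.49 ± 0.40 in the CD8 sort (adjusted p = 0.726). Of 21 polyamine genes, 6, 5 and 4 were tested in the CD8, CD4 and dendritic cell sorts, with median changes of 0.14, 0.60 and -0.35.

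In the NRF2 list, Nfe2l2, which encodes NRF2 itself, had 2, 5 and 19 reads in CD4 libraries with D18, against 39, 16 and 27 with anti-PD-1, a change of -1.48 ± 0.60 (adjusted p = 0.453). In dendritic cells it had 20, 1 and 13 reads with D18, against 21, 19 and 42 with anti-PD-1, a change of -1.45 ± 0.60 (adjusted p = 0.551). In normalised reads the groups did not overlap in either sort, but as a share of total reads they overlapped in both. D18 replicate 2 of the CD4 sort had 5 of 31156 reads, against 16 of 144281 in anti-PD-1 replicate 2. D18 replicate 1 of the dendritic cell sort had 20 of 190641, against 19 of 222402 in anti-PD-1 replicate 2. Of all genes tested, 9.21% separated downward in the CD4 sort and 19.9% in the dendritic cell sort. In the CD8 sort, Sqstm1, an autophagy receptor, stood at -1.11 ± 0.40 (adjusted p = 0.564) and Tkt, transketolase, at -0.88 ± 0.38 (adjusted p = 0.599). Of 18 genes, 5, 4 and 5 were tested, with median changes of -0.88, -0.61 and -1.33.

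In the thioredoxin and selenoprotein list, Selenop, the selenium carrier, was lower on average in every sort: -1.23 ± 0.66 in the CD8 sort (adjusted p = 0.671), -1.57 ± 0.57 in the CD4 sort (adjusted p = 0.453) and -1.57 ± 0.62 in the dendritic cell sort (adjusted p = 0.551). In the NADPH oxidase list, Cybb, the catalytic subunit of the phagocyte oxidase, had 3, 2 and 41 reads in CD4 libraries with D18, against 79, 26 and 48 with anti-PD-1, a change of -2.17 ± 0.70 (adjusted p = 0.453). The iron list gave 2, 1 and 4 tested genes of 34, none at an unadjusted p under 0.05, and Slc11a1, an iron exporter of phagosomes, stood at -2.21 ± 1.13 in the CD8 sort (adjusted p = 0.671). The glutathione list gave 4 tested genes of 27 in each sort, with median changes of -0.29, -0.52 and -0.92.

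The ferritin genes have processed copies elsewhere in the genome. Ftl1-ps1 had 110 reads over the 18 libraries, 1.23% of those of Ftl1, Ftl2-ps had 59 and Ftl1-ps2 had 24. Reads that fit both Ftl1 and a copy could move the Ftl1 count, by an amount that these counts do not give. Exons of Ftl1 also overlap Gm10252 on the opposite strand over 355 bases (36.7% of its exon length) and Gm22133, which had 0 reads. As the libraries keep no strand, reads from the overlap with Gm10252 cannot be told apart from those of Ftl1.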

How the data were processed

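RNA of sorted cells was made into Smart-Seq2 libraries, per the labels' protocols. Such libraries are unstranded and without molecular identifiers. STAR 2.4.0, HTSeq 0.6.1, DESeq2 and the build mm10 are named in the submitters' processing notes (DESeq2 version not given in the sources used here). The 3 deposited tables, 1 per sort, contain the authors' log2 values, and their minimum is 1.34 to 2.22 where a gene has no read. The transform is not stated. Undoing a variance-stabilising transform gave whole reads for 100% of values, within 0.001, and 0 value columns were left unused. Symbols matched 46488 gene IDs (98.9%).

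Changes were estimated with limma 3.58.1 in R 4.3.3 (robust, with a mean-variance trend) on log2(normalised reads + 1), without a block, for genes averaging 10 or more normalised reads in a sort, with Benjamini-Hochberg adjustment over all genes tested. The fit was also run on simulated counts. Those held no mixed libraries, so that run does not measure how the fit performs on these data. Same-numbered CD8 samples deviated together (r of 0.36, 0.51 and 0.56), while the CD4 values were -0.14, 0.15 and -0.20 and the dendritic cell values 0.03, -0.09 and 0.14. The CD8 numbers were therefore used as pairs, from these values alone. No label gives the pairing, and it was not tested. Members and lists were chosen with earlier results of these data known. The text names all 9 members, the pathway genes with the smallest unadjusted p in a sort (up to 4 per list considered), the 8 genes most alike to the members' mean, copies with at least 20 reads, and the markers it uses. Intervals for 0 reads cover counting error only. Alternatives varied the pseudocount, filter, scaling, test, block, covariate and libraries used.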

Additional observations from a re-analysis of the deposited data

How the results depend on the processing

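Sat1 and Gpx1 were lower on average with D18 in every sort under every alternative run, from a larger or smaller pseudocount to another scaling, a covariate or a library left out. The other members changed sign in at least 1 sort when macrophage markers entered the fit or a library was left out.

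The count of genes called moved most. In the CD8 sort it was 0, against 22 with no filter on low values, 1 (Gzma) on the deposited log2 values and 20 with the replicate block; leaving out 1 library gave 0 to 3, the 3 (Apoe, C3ar1 and Pld4) without D18 replicate 3. In the CD4 sort it was 0, against 29 with no filter and 35 without both libraries numbered 3. Leaving out 1 library there gave 0 to 20, the 20 without anti-PD-1 replicate 3. The fits with 35 and 20 calls keep only anti-PD-1 replicates 1 and 2, which had few T cell reads. In the dendritic cell sort it was 0, against 1 (Gm29216) without both libraries numbered 3, and 0 to 0 leaving out 1 library. Of the other pathway genes, 1 (Cybb, -3.07, adjusted p = 0.044 by limma) was called in the CD4 sort without both libraries numbered 3, against 0 with all. The replicate block changed no call in the CD4 and dendritic cell sorts, where same-numbered samples did not all deviate together.

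The members' median change in the CD8 sort, -0.55, was -1.46 with a term for the libraries without mt-Co2, mt-Co3 and mt-Atp6 reads, 0.48 with the macrophage score and -1.22 to -0.037 leaving out 1 library. In the CD4 sort, -1.01 became -0.067 with the macrophage score, -1.97 without both libraries numbered 3 and -1.77 to -0.57 leaving out 1 library, and -0.55 with the term for mt-Co2, mt-Co3 and mt-Atp6. In the dendritic cell sort, -0.56 became 0.64 with the macrophage score, -0.68 with that term and -1.19 to 0.01 leaving out 1 library. With the macrophage score the median of all genes tested there was 0.57. Scaling by total reads shifted the median of all genes to 0.58 in the CD4 sort and -0.27 in dendritic cells, and the medians of the members to -0.43 and -0.09.

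Leaving mitochondrially encoded genes out of the CPM, an alternative chosen after seeing the data, raised the median r of the members with Lyz2 to 0.61, against 0.48, and the median summed CPM to 22209 in the CD4 sort, against 14231, and to 32340 in the dendritic cell sort, against 21165. The cause of these shifts was not tested. Depth limits Hmox1, Gpx4, Txn1 and Sod1 most, each with 0 to 2 reads in at least 1 library.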

Other observations

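The 11 genes that were lower in every D18 library than in every anti-PD-1 library of each sort were, beside Sat1 and Gpx1, Lgmn, Ctsb, Tcn2, Cd72, Apobec1, Capza2, Fam49b, Litaf and Spg21. They were named after their values were seen. Lgmn and Ctsb encode lysosomal proteases, and Tcn2 the carrier that brings vitamin B12 into cells. Ctsb is also on the monocyte and macrophage marker list used above. Lgmn stood at -3.13 in the CD8 sort, -2.56 in the CD4 sort and -2.29 in the dendritic cell sort, and Tcn2 at -1.56, -1.34 and -1.45. In the opposite direction 1 of the 727 genes (0.138%) separated in each sort, Itgal, a chain of the integrin LFA-1, at 1.66, 3.13 and 2.52.

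The ferritin light chain copy Ftl2-ps had 59 reads in 9 of the 12 libraries with reads of mt-Co2, mt-Co3 or mt-Atp6, and 0 reads in the 6 libraries without them. Ftl1-ps1, another copy, had 83 reads in those 12 libraries and 27 in the 6.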
